A study of Mus musculus with 32 samples.

Results

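The 3 genes Wdr45, Atg4a and Fundc1 are the X-linked genes of core autophagy described here, out of 1006 X-linked genes listed in the deposited tables. They were picked by name for their role and with their allelic values already known, so their levels are given as a description and without a test. All 3 were tested in each of the 4 tables, where "tested" means a mean summed level of the 2 alleles of at least 1 FPKM in that table. FPKM is a fragment count scaled to transcript length and to the size of the library, Xa is the active X chromosome and Xi the inactive one.

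The cells were mouse XEN cells, stem cells of the extraembryonic endoderm, from a cross between the strains 129S1/SvImj and JF1/Ms, whose sequence differences allow reads to be assigned to an X chromosome. The labels name 32 RNA samples in 12 groups. WT had 3 samples, XistpA 4, XRR_KO 2 from 2 clones, and XRRa_KO 3, and the groups XRRb_XaKO, XRRb_XiKO, XRRc_XaKO and XRRc_XiKO had 2 each. Cells carrying a Rad21 degron were given DMSO or dTAG, with 4 samples from 2 clones for each treatment, and cells carrying a Ctcf degron were given DMSO or dTAG for 48 h, with 2 samples each. A degron is a tag through which dTAG, a small molecule, triggers breakdown of the tagged protein. The labels do not describe the XistpA and XRR alleles beyond their names, and no clone is named for the other lines. Defining markers of extraembryonic endoderm lie on autosomes and were not analysed here.

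Autophagy delivers cytoplasm and organelles to the lysosome inside a double membrane vesicle. Wdr45 (also called WIPI4) is a propeller protein that binds phosphatidylinositol 3-phosphate and works with Atg2 in the growth of that membrane. Atg4a is a cysteine protease that processes the Atg8 family of ubiquitin-like proteins, to which LC3 and GABARAP belong. Fundc1 is a receptor in the outer mitochondrial membrane that binds LC3 when oxygen is low and so marks mitochondria for removal (mitophagy). In female cells most X-linked genes are silenced on Xi under the control of the noncoding RNA Xist, and a minority, called escape genes, stay expressed from it.

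Each group entered the tables as 1 merged value per gene and allele, so no value below has an SD or a test. The depth behind each value is not given, and some values may rest on few reads that tell the alleles apart. Changes are differences of log2(FPKM + 0.5), a scale that understates the change of low genes, and a difference of 1 or more was called a rise or a fall. FPKM levels are set side by side only inside 1 table. Between tables, the Xi share is used (Xi FPKM in percent of Xa plus Xi FPKM). Some shares lie close to ratios of small whole numbers, such as 25.0% for Wdr45 in Rad21_DMSO and 22.2% for Rragb in XRRa_KO. Few reads could give such shares, but so could larger counts, and which holds was not tested. Xist on Xi stood at 15.5 FPKM in WT, 7.86 FPKM in XRRa_KO and 1.18 FPKM in XRR_KO, and was listed at 0 in XistpA. The labels state no Xist level for these groups, so its values are a description and no check of the labels.

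Wdr45 was the member expressed from Xi in every group. In WT it stood at 19.1 FPKM on Xa and 12.96 FPKM on Xi, an Xi share of 40.5%, which placed it at rank 8 of 270 tested genes. An Xi share of 10% or more was held by 12.2% of tested genes in WT, 20.4% in XistpA, 21.5% in XRR_KO and 15% in Rad21_dTAG. On Xa, Wdr45 stood at 21.1 FPKM in XRRa_KO, and at 28.6 and 22.8 FPKM in XRRb_XaKO and XRRb_XiKO and 23.3 and 20.6 FPKM in XRRc_XaKO and XRRc_XiKO. Over the 12 groups the share ran from 25.0% in Rad21_DMSO to 59.3% in Rad21_dTAG, with a median of 37.9%. The 5 groups taken as controls also differed widely, from 25.0% in Rad21_DMSO through 32.6% in XRRc_XaKO, 37.8% in XRRb_XaKO and 40.5% in WT to 52.1% in Ctcf_DMSO. With 1 value a group, neighbours in that order cannot be told apart. The RefSeq start window of Wdr45 holds an exon of another Wdr45 transcript and lies downstream of the start of other transcripts, so it is not shown.

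Wdr45 reads carry a limit of annotation. The predicted gene Gm45208 runs on the same strand across Wdr45, and its transcript matched 90.7% of a Wdr45 transcript at 100% identity, so their reads cannot be told apart. Gm45208 is not among the genes listed in the tables.

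Atg4a was listed at 0 on Xi in all 5 control groups. Without read counts a listed 0 does not show silence, and its Xa level in the degron controls was only 3.18 FPKM in Rad21_DMSO and 2.04 FPKM in Ctcf_DMSO. On Xa it stood at 8.55 FPKM in WT, 7.93 FPKM in XistpA, 4.61 FPKM in XRR_KO and 7.62 FPKM in XRRa_KO. In the XRRb and XRRc groups its Xa level lay between 6.98 and 9.55 FPKM. On Xi it stood at 3.46 FPKM in XistpA, 3.14 FPKM in XRR_KO and 1.05 FPKM in XRRa_KO. The Xi share was 30.4%, 40.5% and 12.1% in those groups and 0.41% in XRRc_XiKO, and the other 8 groups were at 0. The order of the share was thus XRR_KO above XistpA above XRRa_KO, without replicates to say how firm that order is. The start of its principal transcript Atg4a-201 is shown because this is the member whose Xi value left 0 in 3 lines of the same table. The RefSeq window, 250 bases before to 50 after the start, lies on GRCm38.p6 at chrX:140956657-140956956, plus strand, with CpG in capitals.
Atg4a: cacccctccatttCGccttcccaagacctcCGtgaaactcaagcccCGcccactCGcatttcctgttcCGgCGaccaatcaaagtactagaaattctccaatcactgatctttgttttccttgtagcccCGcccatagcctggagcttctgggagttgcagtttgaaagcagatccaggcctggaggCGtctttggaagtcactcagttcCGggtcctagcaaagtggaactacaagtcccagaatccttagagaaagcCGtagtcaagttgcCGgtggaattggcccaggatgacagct
It held 11 CpG, against a median of 7 over 32851 mouse windows of the same length. Another RefSeq window of Atg4a, whose start matches no GENCODE M21 transcript, held 3 CpG and is not shown.

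Atg4a has a near-identical copy outside the X. The retrogene Atg4a-ps on chromosome 3 matched 96.0% of the Atg4a-201 transcript at 99.3% identity. Reads from that copy could be counted for Atg4a on either allele, and its part in the values was not tested.

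Fundc1 was the most highly expressed member on Xa in WT, at 24.0 FPKM, and near 0 on Xi there. Its Xa level was 23.7 FPKM in XistpA, 18.4 FPKM in XRR_KO and 23.9 FPKM in XRRa_KO, and 22.95 to 26.8 FPKM in the XRRb and XRRc groups. It was listed at 0 on Xi in 7 groups, at 0.019 FPKM in WT, at 0.040 FPKM in XRRa_KO and at 0.040 FPKM in XRRc_XaKO. On Xi it stood at 9.06 FPKM in XistpA and 3.03 FPKM in XRR_KO. The Xi share was 27.6% in XistpA, 14.2% in XRR_KO and at most 0.173% in the other groups. No near-identical copy and no overlapping gene was found for it. The RefSeq window for Fundc1 overlaps exons of its other transcripts and is not shown.

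**Figure D1:**
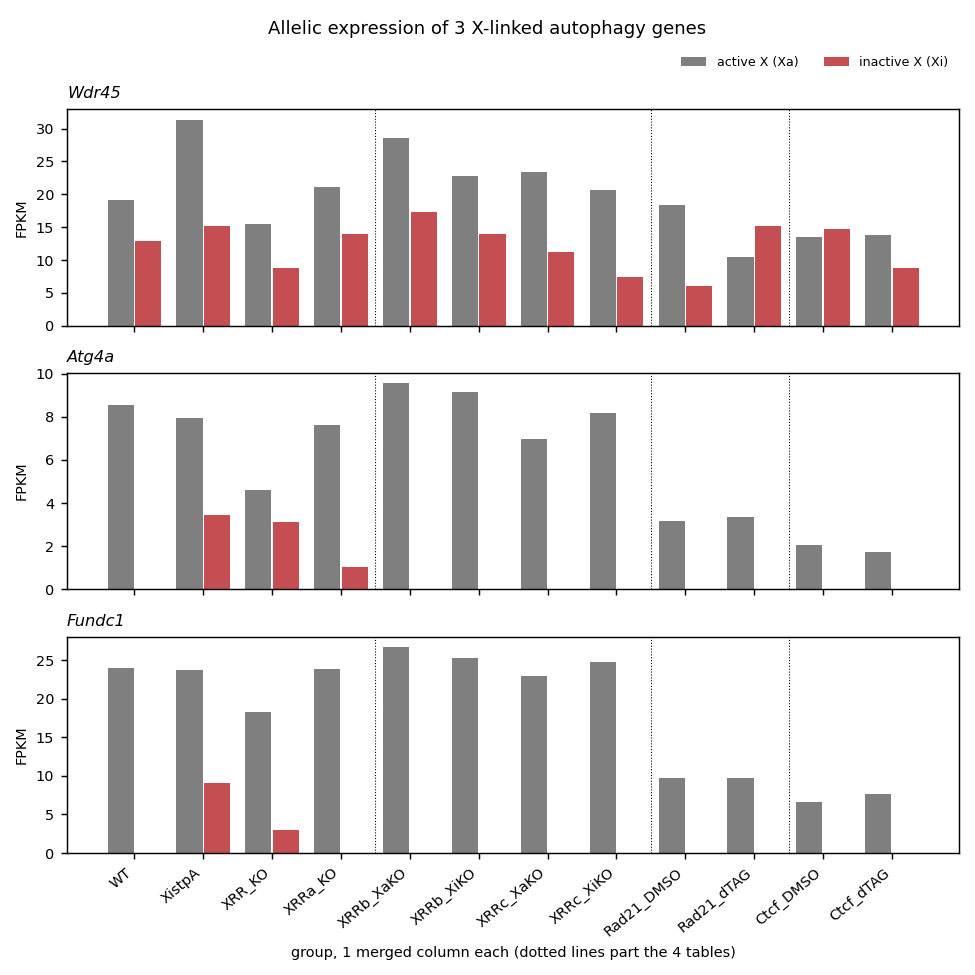
FPKM of Wdr45, Atg4a and Fundc1 on the active X (grey bars) and the inactive X (red bars) in the 12 groups, 1 merged value each, with dotted lines between the 4 tables. Wdr45 has a red bar in every group, whereas Atg4a has visible ones in XistpA, XRR_KO and XRRa_KO and Fundc1 in XistpA and XRR_KO.

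XistpA, XRR_KO and XRRa_KO were each set against WT, a comparison of Xi levels between these lines and WT. All 3 comparisons share the WT column. In XistpA, Atg4a and Fundc1 passed the rule for a rise on Xi, where 12.2% of 270 tested genes did and 1.48% fell. With WT values of a listed 0 and 0.019 FPKM on Xi, Atg4a and Fundc1 could not fall in any of these comparisons. Fundc1 went from 0.019 to 9.06 FPKM, a log2 change of 4.20 that ranked 8 of 270. Atg4a went from a listed 0 to 3.46 FPKM. Wdr45 stood at 12.96 and 15.2 FPKM on Xi (log2 change 0.22).

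In XRR_KO the same genes, Atg4a and Fundc1, passed the rule on Xi, where 15.9% of tested genes did and 1.11% fell. Fundc1 reached 3.03 FPKM (log2 change 2.77) and Atg4a 3.14 FPKM. In XRRa_KO only Atg4a passed it among the 3, at 1.05 FPKM, where 5.93% of tested genes did. Fundc1 in XRRa_KO stood at 0.040 FPKM on Xi, near its WT value. Of the 178 tested genes listed at 0 on Xi in WT, 10 in XistpA, 16 in XRR_KO and 2 in XRRa_KO reached 0.5 FPKM on Xi, and Atg4a was among them in each. Because the members were chosen with these values known, their counts are not read against the background.

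**Figure D2:**
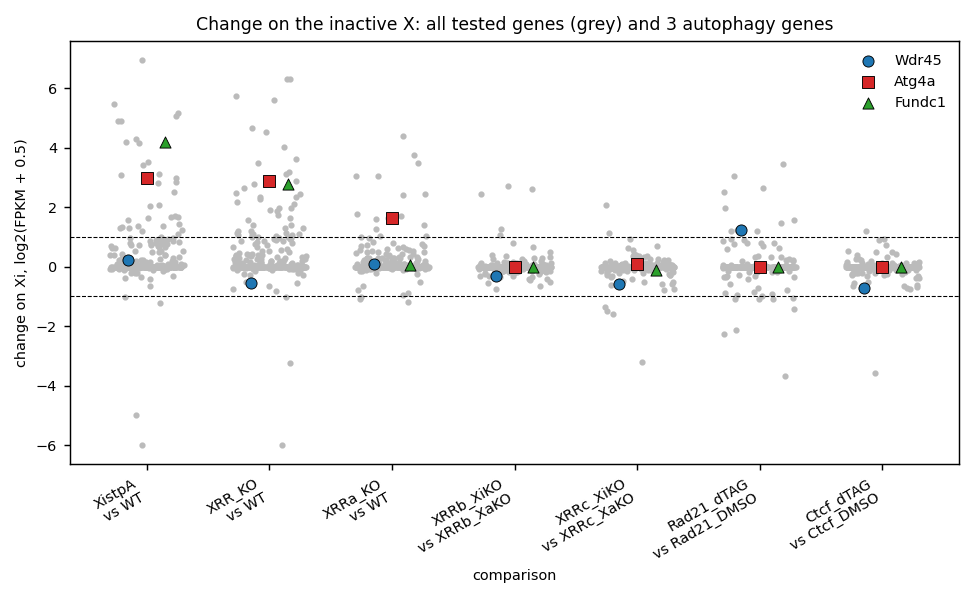
Change on the inactive X, as log2(FPKM + 0.5), in the 7 comparisons, with every tested gene in grey and the 3 autophagy genes as coloured symbols; dashed lines mark the size rule of 1. Atg4a (squares) lies above the upper line in the first 3 comparisons, Fundc1 (triangles) in the first 2 and Wdr45 (circles) in the comparison of Rad21_dTAG with Rad21_DMSO.

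On Xa none of the 3 genes passed the rule in these comparisons. In XistpA 1.11% of tested genes rose and 3.33% fell on Xa, in XRR_KO 1.11% and 3.7%, and in XRRa_KO 0.37% each way. Wdr45 on Xa stood at 31.4 FPKM in XistpA against 19.1 FPKM in WT, a log2 difference of 0.70 that ranked 5 of 270. Atg4a on Xa stood at 4.61 FPKM in XRR_KO against 8.55 FPKM in WT, a difference of -0.82 where the median of all tested genes was -0.19.

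Summed over Xa and Xi, Atg4a and Fundc1 stood above WT in XistpA, by log2 values of 0.39 and 0.44. In XRR_KO they differed from WT by -0.13 and -0.16, no more than the median of -0.19 for all tested genes on Xa. Summed, Atg4a stood at 8.55 FPKM in WT, 11.4 FPKM in XistpA, 7.76 FPKM in XRR_KO and 8.67 FPKM in XRRa_KO. Fundc1 stood at 24.0, 32.8, 21.4 and 23.9 FPKM in the same groups. With 1 column a group, these differences have no replicate check.

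The Xi share of Wdr45 was below WT in XistpA and XRR_KO, where most genes already expressed on Xi were above it. Among the 31 genes at 10% Xi share or above in WT, Xist and Tsix left out, 25 had a higher share in XistpA and 6 a lower one, and in XRR_KO 28 were higher and 3 lower. The median share of these genes was 31.5% in WT, 48.2% in XistpA and 47.1% in XRR_KO. The share of Wdr45 went from 40.5% to 32.7% in XistpA and to 36.04% in XRR_KO, the second lowest change of the 31 in each. In XRRa_KO it was 39.8%, a difference of -0.65 points, where 26 genes were higher and 5 lower. The lower share in XistpA came with a higher Xa level (31.4 against 19.1 FPKM) at a similar Xi level, and in XRR_KO with lower levels on both alleles, 15.5 FPKM on Xa and 8.71 FPKM on Xi.

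Rad21, a subunit of the cohesin ring, and Ctcf, a DNA-binding protein that positions cohesin, were the targets in the degron lines. Both genes lie outside the X and their own levels were not analysed here. With dTAG in the Rad21 line, Wdr45 on Xi went from 6.11 to 15.2 FPKM, a log2 change of 1.25 that passed the rule, as 4.05% of 247 tested genes did, while 3.24% fell. Its Xa level went the other way, from 18.3 to 10.5 FPKM (-0.78, median of all genes -0.26), and on Xa 6.48% of tested genes rose and 15% fell. The sum was 24.5 and 25.7 FPKM. The Xi share was 25.0% with DMSO and 59.3% with dTAG. Among the 30 genes at 10% Xi share or above in Rad21_DMSO, 24 had a higher share with dTAG and 6 a lower one. The gain of 34.3 points in Wdr45 ranked 3 from the highest. These 30 genes had a median log2 change of -0.15 on Xi and -0.44 on Xa, so their higher shares came without a general rise on Xi. The DMSO share of 25.0% was the lowest of Wdr45 in any group. Fundc1 and Atg4a were listed at 0 on Xi with either treatment. On Xa, Fundc1 stood at 9.74 and 9.80 FPKM and Atg4a at 3.18 and 3.37 FPKM with DMSO and dTAG.

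With dTAG in the Ctcf line, Wdr45 on Xi stood at 8.78 FPKM against 14.6 FPKM with DMSO. This log2 difference of -0.71 did not pass the rule, which 0.361% of 277 tested genes did in each direction, and was the third lowest of all. Of the 277, 214 were listed at 0 on Xi with DMSO and could not fall. Its Xi share was 39.0% against 52.1%, while Xa stood at 13.8 and 13.5 FPKM. The Wdr45 difference thus had opposite signs in the Rad21 and Ctcf lines, which belong to different tables, and the difference between them was not tested. Atg4a and Fundc1 were again listed at 0 on Xi in both columns. On Xa, Atg4a stood at 2.04 and 1.72 FPKM and Fundc1 at 6.67 and 7.65 FPKM with DMSO and dTAG, where the median change of all genes on Xa was 0.23, 5.42% rose and 0.722% fell.

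For the XRRb and XRRc lines, XiKO was set against XaKO, as the names pair them. None of the 3 genes passed the rule on either allele. On Xi, 1.92% of 261 tested genes rose and 0% fell in XRRb, and 0.766% rose and 1.53% fell in XRRc. On Xa, 0.766% rose and 2.3% fell in XRRb, and 1.15% rose and 1.15% fell in XRRc. Atg4a and Fundc1 were listed at 0 on Xi in both XRRb groups and stayed at or below 0.040 FPKM in XRRc. Wdr45 on Xi stood at 17.4 and 13.9 FPKM in XRRb_XaKO and XRRb_XiKO, with shares of 37.8% and 37.9%. In XRRc it stood at 11.3 and 7.39 FPKM, with shares of 32.6% and 26.4%. The log2 difference of -0.58 on Xi in XRRc was no wider than that between XRRb_XaKO and XRRc_XaKO, at 0.60.

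The chromosomal neighbours of the 3 genes behaved unevenly. Gene order was taken from RefSeq (GRCm38.p6), and the 3 nearest tested genes on each side were read. Wdr45 sits among genes expressed from Xi. In WT, 4 of its 6 neighbours had an Xi share of 10% or more, among them the adjacent Gpkow, which encodes a nuclear RNA-binding protein, at 41.2%, Ccdc120 at 22.7% and the transcription factor gene Tfe3 at 29.4%. Praf2, next to Wdr45 on the other side, and Plp2 were listed at 0 on Xi in WT, and Praf2 stood at 26.6% in Ctcf_DMSO and at 0 in Ctcf_dTAG. Ccdc22 fell on Xi in XistpA and XRRa_KO, from 2.39 to 0.743 and 0.781 FPKM, with shares of 6.72% and 6.55% against 20.0% in WT, and had 37.2% in XRR_KO. Ccdc120 rose on Xi in XRRa_KO, from 1.23 to 3.03 FPKM (log2 change 1.03). In XistpA and XRR_KO, Gpkow stood at 49.4% and 49.3%, Ccdc120 at 43.2% and 39.2%, and Tfe3 at 47.9% and 46.4%, all above WT, while Wdr45 was below it. With dTAG in the Rad21 line, Ccdc120 went from 16.1% to 53.7% and Tfe3 from 43.8% to 53.1%, in the direction of Wdr45, and Gpkow went from 59.0% to 48.4%.

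Atg4a and Fundc1 lie among genes mostly at or near 0 on Xi in WT. Around Atg4a, 5 of 6 neighbours had a share under 1% in WT and the predicted gene Gm5643 had 3.03%. Gm5643 rose on Xi in XRR_KO, from 0.504 to 1.61 FPKM, and was listed at 0 in XRRa_KO. Rbm41, a predicted RNA-binding protein gene, passed the rule for a rise on Xi in XistpA and XRR_KO as Atg4a did. It went from a listed 0 to 46.6% in XistpA and 61.0% in XRR_KO and stood at 3.07% in XRRa_KO. Between them lie 10 listed genes, of which the tested Prps1 and Tex13 stayed below 1% in WT, XistpA, XRR_KO and XRRa_KO. Acsl4 and Nxt2, on the other side, were listed at 0 on Xi in these 4 groups. Around Fundc1, the monoamine oxidase gene Maoa and the histone demethylase gene Kdm6a, its nearest tested neighbours, were listed at 0 on Xi in all 12 groups. Kdm6a is known as an escape gene in mouse, so a listed 0 in these tables need not mean no expression. Rp2h stood at 24.9% in XRR_KO and 3.99% in XistpA, against 14.2% and 27.6% for Fundc1. The RNA helicase gene Ddx3x, an escape gene, had 35.6% in WT.

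**Figure D3:**
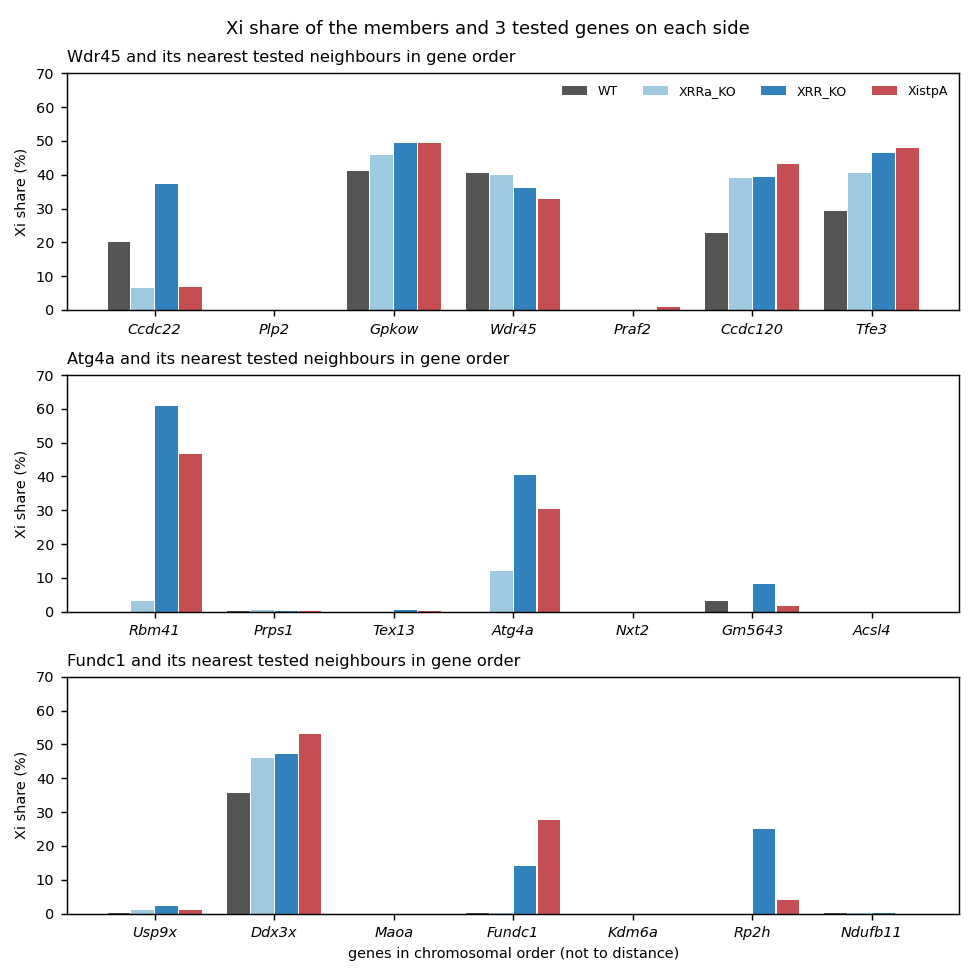
Xi share in percent of Wdr45, Atg4a and Fundc1 (middle of each panel) and of the 3 nearest tested genes on each side, in WT, XRRa_KO, XRR_KO and XistpA; genes stand in chromosomal order, not to distance. Wdr45 has bars of similar height in all 4 groups, Atg4a and Rbm41 have none in WT, and the genes directly beside Atg4a and Fundc1 are at or near 0.

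The genes most like each member were sought among 225 others that were tested in all 4 tables and had a share in all 12 groups, by the mean absolute difference of the Xi share. The groups of a table share their processing. Nearest to Wdr45 were Ndufa1, a subunit of respiratory complex I (7.97 points apart on average), Wbp5 (8.22) and Tfe3 (9.28). Nearest to Atg4a were Zc4h2 (1.74 points), Mum1l1 (1.86) and Stard8 (2.07). Zc4h2 stood at 38.5% in XistpA, 38.8% in XRR_KO and 1.33% in XRRa_KO, and Mum1l1 at 34.9%, 38.7% and 25.0%, so Atg4a with 12.1% in XRRa_KO lay between them. Nearest to Fundc1 were Mospd1 (0.557 points), Capn6 (1.22) and Amot (1.74). Mospd1 stood at 23.9% in XistpA and 11.8% in XRR_KO, beside 27.6% and 14.2% for Fundc1. Fundc1 itself was 8 in the order of likeness to Atg4a, 3.47 points apart. Atg4a, Fundc1 and the genes nearest to them were at or near 0 in most groups, which keeps such distances small. Wdr45 was 32.0 points from Atg4a and 34.7 points from Fundc1.

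Other X-linked genes of the pathway were read from a list of 16, and most were at or near 0 on Xi in every group. Of these, 11 act in or regulate autophagy and 5 belong to its lysosomal end. In the table with WT, 13 were tested. On Xi, 1 rose in XistpA, 3 in XRR_KO and 0 in XRRa_KO, and 0 fell in any of them. Only Tfe3 could fall, since the other tested list genes stood at 0.058 FPKM or less on Xi in WT. The 3 in XRR_KO include Rragb, which passed the filter only through the XRR_KO column, where it is high. Over all 270 tested genes 12.2%, 15.9% and 5.93% rose and 1.48%, 1.11% and 1.11% fell, so the counts of 1, 3 and 0 of 13 do not set the list apart. The median change on Xi was 0 in XistpA and XRRa_KO and 0.029 in XRR_KO, and the median of all tested genes was 0 in each. In the other 4 comparisons 0 of 11 to 13 tested list genes passed the rule on either allele. Over all tested genes of these comparisons 0% to 4.05% passed it in a direction on Xi and 0.722% to 15% on Xa, so a count of 0 says little about the list.

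Lamp2, which encodes a lysosomal membrane protein needed for fusion with autophagosomes, was listed at 0 on Xi in WT and rose to 1.53 FPKM in XistpA and 5.70 FPKM in XRR_KO. Its Xi share reached 3.59% and 13.5%, below those of Fundc1 and Atg4a in XistpA and close to Fundc1 in XRR_KO. Rragb, a Rag GTPase that recruits mTORC1 to the lysosome, rose in XRR_KO from a listed 0 to 2.25 FPKM on Xi, a share of 70.6%, and was listed at 0 in XistpA. In XRRa_KO Rragb stood at 0.196 FPKM on Xi, a share of 22.2%, without passing the rule for a rise. It passed the filter only through the XRR_KO column, since its WT level was 0.816 FPKM. Atp6ap2, an accessory subunit of the proton pump, rose from 0.058 to 1.23 FPKM on Xi in XRR_KO, a share of 1.98%. Its partner Atp6ap1 fell on Xa in XRR_KO, from 94.4 to 41.5 FPKM (-1.18).

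Tfe3, a transcription factor that activates autophagy and lysosome genes, was the one list gene with an Xi share of 10% or more in all 12 groups, from 26.4% in Ctcf_dTAG to 53.1% in Rad21_dTAG. Fundc2, the X-linked relative of Fundc1, had 19.7 FPKM on Xa in WT and was listed at 0 on Xi there, and its Xi share stayed at 0.094% or less in XistpA and XRR_KO. Vma21, an assembly factor of the proton pump, and Tab3, an adaptor that binds Beclin 1, were listed at 0 on Xi in all 12 groups. Ubqln2 was listed at 0 on both alleles in every group, and Trappc2 is listed in the Ctcf table alone, at 2.74 and 4.84 FPKM on Xa.

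**Figure D4:**
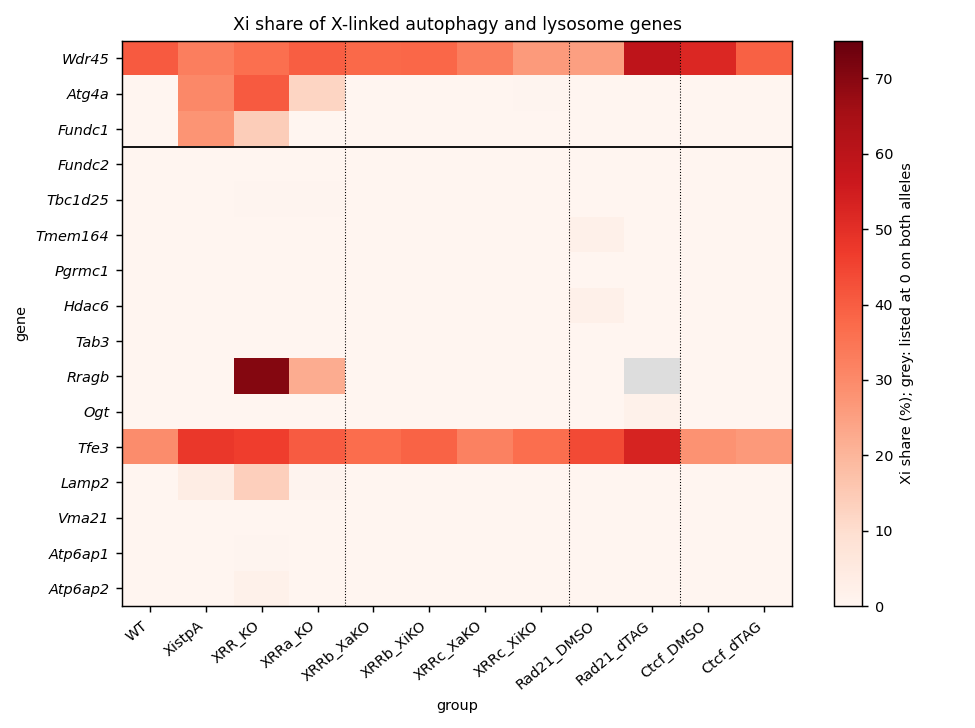
Xi share in percent (colour scale) of Wdr45, Atg4a and Fundc1, above the line, and of the 13 list genes tested in the table with WT, below it, in the 12 groups; the grey cell is listed at 0 on both alleles. Wdr45 and Tfe3 are coloured across all groups, and colour outside them is found mainly in XistpA, XRR_KO and XRRa_KO.

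The E-box core CACGTG, to which Tfe3 binds, and CCATNTT, the YY1 core, were searched on both strands of the Atg4a window shown and not found. Of all 32851 windows, 7.15% and 16.1% hold them. CCCTC, a piece of the longer CTCF motif, was found 1 time in the Atg4a window shown, and 66.0% of all windows hold it.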

How the data were processed

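Polyadenylated RNA of 32 XEN samples was made into Smart-seq2 libraries, per the labels' protocols. The protocol keeps no strand. The submitters' processing notes list StringTie 2.1.1, HISAT2 2.2.0, Trim Galore 0.6.4 and, as genome build, mm9. No source used here states the method of allele assignment. The authors deposited allelic FPKM values in 24 columns of 4 tables, 1 for each of 12 groups and allele, merged over samples per the file headers and names. The Ctcf columns name the treatment only and were assigned by the name of their table. The planned limma test and replicate checks could not be run on merged columns. Depth per sample is unknown, so no interval is given.

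Computed here were Xi shares, differences of log2(FPKM + 0.5) and counts past a size rule of 1, over genes with a mean Xa plus Xi FPKM of 1 or more (270, 261, 247 and 277 genes). The size rule was tried on a table simulated from WT Xa levels, with planted changes well above the rule. No starting level in it was low, so the trial does not cover genes with low Xi levels. Named genes were the 3 members in every group, list genes past the size rule or at a share of 10% or more, the 3 nearest tested neighbours on each side, the 3 most alike genes per member, and Xist. Other genes (Fundc2, Vma21, Tab3, Ubqln2, Trappc2) were named after their values were seen. Members, lists and comparisons were chosen with earlier results of these data known. RefSeq annotation of GRCm38.p6, not the build of the tables, gave the gene order, with 999 of 1006 genes placed, and the promoter window shown, whose coordinates are of that build, and protein sequences were not used here. Copies were sought among GENCODE M21 transcripts using minimap2 2.31, where a match needed 95% identity and 50% coverage. Alternatives were pseudocounts of 0.1 and 1 FPKM, a size rule of 0.5, a filter of 5 FPKM or none, scaling of each column to the same median on Xa, and shares with 0.5 FPKM added to both alleles. Tables were handled in pandas 2.3.3 and numpy 2.4.6 under Python 3.11.15, and plots drawn in matplotlib 3.10.9.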

Additional observations from a re-analysis of the deposited data

How the results depend on the processing

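No paired analysis was possible because each group is 1 merged column, and leaving out replicates was not run for the same reason. For the 3 genes, 242 of 248 recomputed log2 changes kept their side of the size rule, and 0 that passed it changed sign. Much of this was fixed in advance, since the 42 values without a filter and the 38 at 5 FPKM repeat the reported change. Under a size rule of 0.5 the values stay as reported and calls can only be added. A pseudocount cannot switch a sign, so only the 42 values at equal median Xa FPKM could. At equal median Xa FPKM, 5 small Xa changes switched sign, namely Fundc1 in XistpA (-0.016 to 0.0081), Atg4a (-0.057 to 0.079) and Fundc1 (-0.077 to 0.064) in XRRb, and Wdr45 (0.028 to -0.23) and Fundc1 (0.18 to -0.068) in Ctcf. Under a size rule of 0.5 another 6 passed, namely Wdr45 on Xa in XistpA (0.70) and in Rad21_dTAG (-0.78), Wdr45 on Xi in XRR_KO (-0.55), XRRc_XiKO (-0.58) and Ctcf_dTAG (-0.71), and Atg4a on Xa in XRR_KO (-0.82). With a filter of 5 FPKM, Atg4a was not tested in the Rad21 and Ctcf tables and gave no value there. The size of rises from near 0 depends on the pseudocount. Fundc1 on Xi changed by 6.27, 4.20 and 3.30 in XistpA and by 4.72, 2.77 and 1.98 in XRR_KO with 0.1, 0.5 and 1 FPKM, and Atg4a in XRRa_KO stayed past the rule by little with 1 FPKM (1.03). At equal median Xa FPKM, Wdr45 on Xi in Rad21_dTAG rose by 1.64 and in Ctcf_dTAG the difference was -0.96. Over all tested genes, rises on Xi in XistpA, XRR_KO, XRRa_KO, XRRb, XRRc, Rad21 and Ctcf numbered 33, 43, 16, 5, 2, 10 and 1. With a pseudocount of 0.1 they numbered 58, 69, 33, 12, 8, 18 and 6, with 1 they numbered 28, 32, 11, 3, 1, 8 and 0, and with a size rule of 0.5 they numbered 64, 64, 31, 7, 6, 20 and 6. Falls on Xi numbered 4, 3, 3, 0, 4, 8 and 1, with a pseudocount of 0.1 they numbered 6, 6, 6, 4, 11, 16 and 6, with 1 they numbered 2, 2, 0, 0, 3, 3 and 1, and with a size rule of 0.5 they numbered 5, 8, 8, 4, 11, 16 and 9. At equal median Xa FPKM falls in Rad21 numbered 5 and in XRR_KO and XRRa_KO 2 each. Rises in XRRc numbered 1 with a filter of 5 FPKM, and in Ctcf 2 without a filter. Depth is unknown and bounds no listed 0.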
